A study of Mus musculus with 13 samples.

Results

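Aicardi-Goutières syndrome is an inherited inflammatory disease of the brain in which the type I interferon response is switched on without infection. It can be caused by variants of ADAR, the gene of the RNA-editing enzyme ADAR1, and of IFIH1, the gene of the double-stranded RNA sensor MDA5. The other genes of the syndrome mostly remove nucleic acids that would otherwise be sensed. TREX1 is a DNA exonuclease, and RNase H2 is an enzyme of the subunits RNASEH2A, RNASEH2B and RNASEH2C that cuts RNA paired with DNA. SAMHD1 breaks down deoxynucleotides, and LSM11 is a protein of the small ribonucleoprotein that trims the ends of replication-dependent histone transcripts. The mouse genes Trex1, Rnaseh2a, Rnaseh2b, Rnaseh2c, Samhd1 and Lsm11 were chosen by name, as genes of the syndrome other than Adar and Ifih1. No measured value entered the choice of these genes. They are 6 of 54307 genes in the count table, and all 6 were among the 19962 genes that passed the filter on low counts. In GRCm38, Trex1 lies at chr9:109057933-109059734, Rnaseh2a at chr8:84956610-84969767, Samhd1 at chr2:157097533-157135265 and Lsm11 at chr11:45928269-45944935, all on the minus strand. Rnaseh2b lies at chr14:62292589-62372992 and Rnaseh2c at chr19:5601873-5607019, both on the plus strand.

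Their RNA was measured in whole brain homogenate of C57BL/6 mice with 4 Adar genotypes. The P195A change lies in the domain by which p150, the long interferon-inducible form of ADAR1, binds Z-shaped nucleic acids. There were 3 P195A/+ animals (2 females and 1 male, 43 days old), 4 P195A/P195A animals (3 females and 1 male, 42 or 48 days), 3 P195A/- animals (2 females and 1 male, 42 days) and 3 wt animals (2 females and 1 male, 48 to 74 days). P195A/- is a short label; a longer one for these animals names P195A on both alleles and AdarKO/+ as well, and nothing in the labels explains this. Each library is 1 brain. In such bulk tissue, fewer cells of a type and less RNA per cell cannot be told apart. No P195A/+ or P195A/- animal had the age of a wt animal, so age and genotype cannot be told apart in those comparisons.

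Library totals were 18540118 to 21272435 counts in P195A/+, 13539148 to 20688387 in P195A/P195A, 15591470 to 18359307 in P195A/- and 17891377 to 22399005 in wt. On the first principal component, with 20.4% of the variance, P195A/P195A replicates 2 and 3 stood at opposite ends (scores of 53.5 and -49.1), and the other libraries lay between -31.5 and 26.4. No libraries of a genotype agreed within sampling noise (chi-square per degree of freedom 7.19 to 43.5). Mitochondrial transcripts took 1.57% of counts in P195A/- replicate 3 and 0.457 to 0.79% in the other libraries. Adar itself averaged 240 ± 6.63 CPM in P195A/+, 323 ± 28.6 in P195A/P195A, 201 ± 4.28 in P195A/- and 180 ± 13.3 in wt (SD, n = 3, 4, 3 and 3), where CPM is the count scaled to a common library size. A whole-gene level does not check a single-base label such as P195A. Neuron, astrocyte, oligodendrocyte, microglia and endothelial marker lists had no gene at 0 in all libraries.

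In 2 of the 6 genes, the deposited read counts at known editing sites held edited reads, and these stretches are shown because the editing results below turn on them. ADAR1 converts A to inosine, which is read as G, in double-stranded RNA. All 15 sites listed for Lsm11 lay within 59 bases of the 3′ UTR, in exon 4, the last exon of transcript Lsm11-202. Rnaseh2a had 13 listed sites. Of these, 12 lay over 813 bases of the 3′ UTR of Rnaseh2a-203 (exon 8, the last) and 1 lay in an intron. No site was listed for Trex1, Rnaseh2b, Rnaseh2c or Samhd1. The sequences are from the GENCODE M21 transcripts (GRCm38, minus strand of the genome), 5′ to 3′, with listed edited bases in capitals. The first is chr11:45930583-45930612 and the second is chr8:84957488-84957517. The third is chr11:45932375-45932404, which lies further 5′ in the same Lsm11 exon and is partly complementary to the first.
Lsm11 edited stretch: AagtAAAccAggctAgtttcAAacacAgAt
Rnaseh2a edited stretch: AgacacggcAgaAgagggcAtcAgatccca
Lsm11 inverted copy: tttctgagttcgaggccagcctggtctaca

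The most edited base of Lsm11 is the fifteenth of its stretch (chr11, position 45930598), and that of Rnaseh2a is the thirteenth of its stretch (chr8, position 84957505). The bases round the most edited Lsm11 site were searched with BLAST against the reverse complement of the whole Lsm11 transcript, which gave 2 hits. Only the first was used. It paired positions 45930562 to 45930649 with 45932337 to 45932425 on chromosome 11, 1687 bases apart. The aligned length was 90, of which 68 (75.6%) were complementary. All 15 listed sites fell inside the aligned stretch and 10 of them stood opposite a complementary base. The most edited one did not. Such inverted copies can fold into the double-stranded RNA that ADAR enzymes bind, and folding was not measured here.

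Levels between genes were compared per kilobase of annotated exon. Lsm11 was the most abundant, with a mean of 10.7 ± 0.913 CPM per kb (SD, 13 libraries), above 78% of the genes tested. Rnaseh2c had 4.66 ± 0.969 CPM per kb, Rnaseh2a 3.28 ± 0.974 and Samhd1 2.0 ± 0.242. Trex1 had 1.37 ± 0.854 CPM per kb and Rnaseh2b 0.859 ± 0.317, above 31.2% and 23.1% of the genes tested. Neighbours in this order overlapped in their libraries, except that every library's Lsm11 value (9.03 to 11.8) lay above every Rnaseh2c value (3.67 to 6.87). The subunits of RNase H2 form a complex in equal numbers. Per kb, the RNA of the catalytic subunit Rnaseh2a and of Rnaseh2c lay above that of Rnaseh2b in every library (2.1 to 5.49 and 3.67 to 6.87, against 0.567 to 1.47 CPM per kb). This order depends on the annotated exon lengths. In CPM, Rnaseh2b (8.61) lay above Rnaseh2a (7.37) and Rnaseh2c (7.22) in P195A/P195A replicate 2, though in no other library. Protein was not measured. Spread between libraries was smallest for the gene with the most counts and widest for that with the fewest. The coefficient of variation was 8.55% for Lsm11, with 948 to 1585 counts a library, and 62.5% for Trex1, with 0 to 62.

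**Figure D1:**
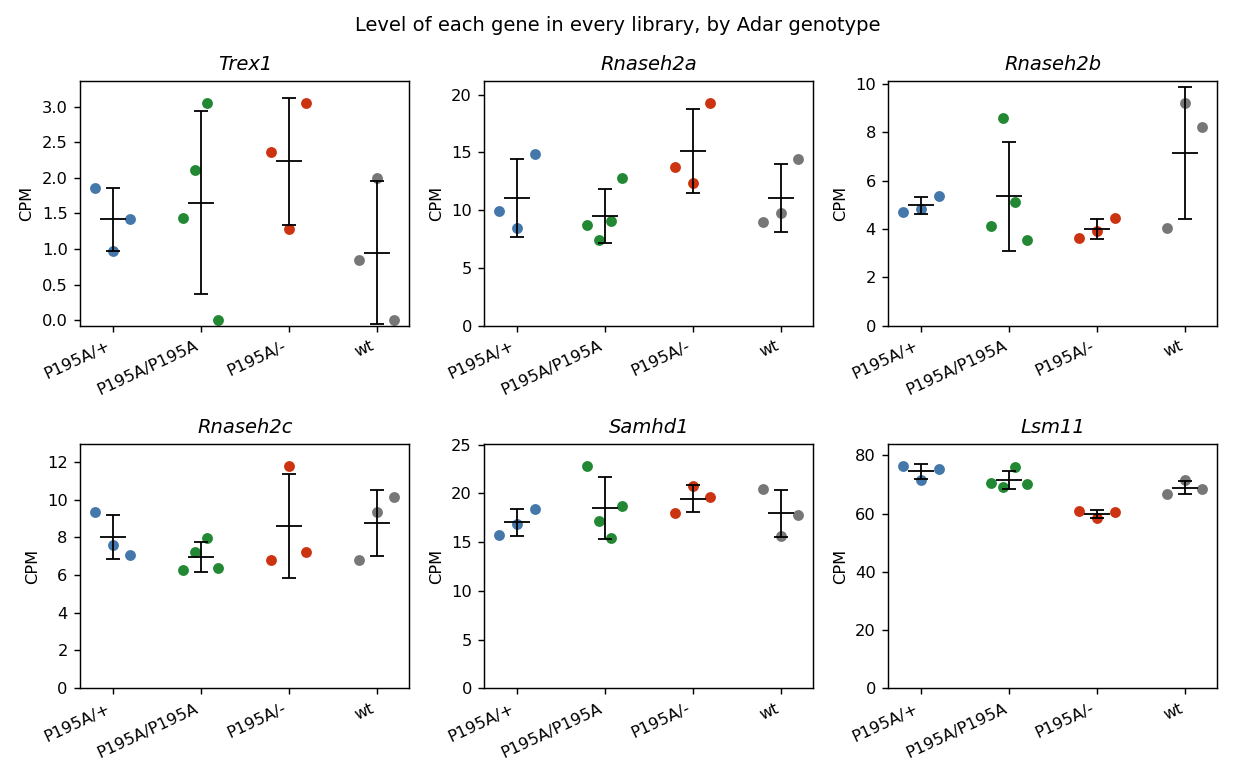
Level in CPM (y axis) of each gene in the 13 libraries, by Adar genotype (x axis). Points are libraries and black bars the mean ± SD. The 3 P195A/- libraries have 58.3 to 60.9 CPM of Lsm11, below all other libraries, and in the other panels no genotype stands apart from all others.

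None of the 6 genes passed the test in any comparison. The test was edgeR's quasi-likelihood test over all 19962 genes, with a Benjamini-Hochberg adjusted p under 0.05. In P195A/+ against wt, 0 of 6 passed, where 0.01% of all genes did, and 0 of 6 had an unadjusted p under 0.05 (4.48% of all genes). In P195A/P195A against wt the counts were also 0 and 0 of 6 (0.0501% and 5.89% of all genes). In P195A/- against wt they were 0 and 2 of 6 (0.0351% and 10.6% of all genes), and in P195A/- against P195A/P195A 0 and 2 of 6 (0.0401% and 6.82% of all genes). The test for any difference among the 4 genotypes passed 0 of 6, and 1 of 6 had an unadjusted p under 0.05 (0.115% and 8.59% of all genes). DESeq2, run as an alternative, passed 1 of 6, Lsm11, in its test over the 4 genotypes (1.17% of genes with an adjusted p). It passed 0 of 6 in P195A/+ against wt, in P195A/P195A against wt and in P195A/- against P195A/P195A (0.0953%, 0.0953% and 0.261%). It gave an adjusted p in P195A/- against wt to only 4094 of the 19962 genes and to 1 of the 6, Lsm11, which did not pass (4.89% of the 4094 did). Counts of gene lists by DESeq2 in that comparison likewise cover only the genes given an adjusted p, which were 0 to 4 in each pathway list. Of the 11 proliferating cell markers tested, 0 were given one. The median log2 fold change of the 6 genes was -0.04, -0.09, 0.04 and 0.19 in these comparisons, against 0.00, 0.01, 0.02 and 0.00 over all genes tested. The 3 comparisons with wt share its libraries. The shares of all genes given here also stand beside the counts of gene lists below.

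**Figure D2:**
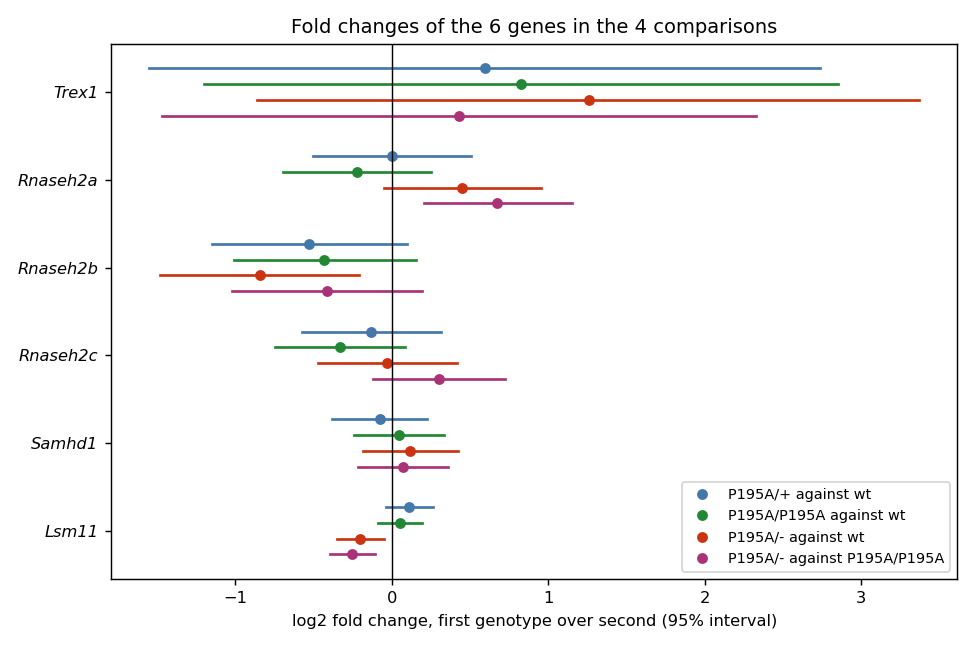
Log2 fold change (x axis) of each gene (rows) in the 4 comparisons, as points with approximate 95% intervals of 1.96 standard errors. Intervals are narrowest for Lsm11, from -0.40 to -0.11 in P195A/- against P195A/P195A, and widest for Trex1, from -0.86 to 3.37 in P195A/- against wt.

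Lsm11, the protein of the histone-processing particle, was the gene of the 6 with a genotype whose libraries stood apart from all others. It had 76.3, 71.6 and 75.4 CPM in P195A/+ brains, 70.4, 69.2, 76.1 and 70.1 in P195A/P195A, 60.9, 58.3 and 60.6 in P195A/-, and 66.8, 71.4 and 68.4 in wt. The 3 P195A/- libraries were the lowest of all 13 and overlapped none of the other 10, a pattern found in the same direction in 1.71% of all genes tested. P195A/+ libraries lay above wt without overlap, and P195A/P195A libraries overlapped both.

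The log2 fold change of Lsm11 was -0.20 in P195A/- against wt (SE 0.08, adjusted p = 0.365) and -0.25 in P195A/- against P195A/P195A (SE 0.07, adjusted p = 0.486). Both had an unadjusted p under 0.05. P195A/- lay below the other group without overlap in 10.5% and 4% of all genes in these comparisons. In P195A/+ against wt it was 0.11 (SE 0.08, adjusted p = 0.999), where 5.62% of genes lay above wt without overlap, and in P195A/P195A against wt 0.05 (SE 0.07, adjusted p = 0.926). The test over the 4 genotypes gave an adjusted p of 0.36 by edgeR and 0.0376 by DESeq2's likelihood ratio test. None of these edgeR values passed. P195A/P195A replicates 1 and 2, at 42 days the age of the P195A/- animals, had 70.4 and 69.2 CPM, and the 74-day-old wt animal (replicate 3) had 68.4, between the other wt animals. The part of age in the level of Lsm11 was not tested. Without P195A/P195A replicates 2 and 3, the log2 fold change in P195A/- against P195A/P195A was -0.23.

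The sums of 3 cell type marker lists, those of oligodendrocytes, of astrocytes, and of endothelial cells and pericytes, stood apart between P195A/- and wt. The astrocyte sums lay below wt, and those of the other lists lay above it. Among single genes, P195A/- lay below wt without overlap in 10.5% of all genes tested. The share of genes lying above wt is not given here, and no such share was worked out for list sums. Oligodendrocyte markers summed to 7050 to 7510 CPM in P195A/- and 5822 to 6573 in wt, and 7 of 8 were at a higher level. Of these 7, 4 had an unadjusted p under 0.05, where 10.6% of all genes did, and none passed edgeR's test. Cldn11, a myelin junction protein, passed DESeq2's test (log2 fold change 0.35, SE 0.10, adjusted p = 0.255 by edgeR). The list's median log2 fold change was 0.20, against 0.02 over all genes. These markers summed to 6382 to 7717 CPM in P195A/+ and 5940 to 6565 in P195A/P195A. Opalin, a myelin protein, was at 0.65 in P195A/+ against wt (SE 0.15, adjusted p = 0.543 by edgeR, passing with DESeq2).

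Neuron markers summed to 5715 to 6410 CPM in P195A/- and 6291 to 6611 in wt, with 7 of 10 at a lower level (median -0.09). Gad1, the enzyme that makes GABA, was at -0.33 (SE 0.08, adjusted p = 0.188 by edgeR, passing with DESeq2), and Snap25, a protein of synaptic vesicle release, at -0.21 (SE 0.10, adjusted p = 0.477). Astrocyte markers summed to 7866 to 8698 CPM in P195A/- and 9040 to 9926 in wt, without overlap, and 6 of 8 were at a lower level (median -0.12). In P195A/P195A they summed to 7831 to 8972 CPM, also below every wt library. The glutamate transporters Slc1a2 and Slc1a3 were at -0.22 (SE 0.07, adjusted p = 0.281) and -0.25 (SE 0.08, adjusted p = 0.31). Endothelial and pericyte markers summed to 420 to 438 CPM in P195A/- and 368 to 416 in wt, also without overlap. The part of these cell types in the level of Lsm11 was not tested.

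Of the other histone pre-mRNA processing genes, 18 of 19 were tested and none passed in any comparison by edgeR or DESeq2. In P195A/- against wt 8 were higher and 10 lower, 2 with an unadjusted p under 0.05, with a median log2 fold change of -0.01. Lsm10, the partner of Lsm11 in the same ring of proteins, had fold changes of the opposite sign in P195A/-. It averaged 1.54 ± 0.44 CPM in P195A/+, 1.96 ± 0.698 in P195A/P195A, 3.59 ± 0.627 in P195A/- and 1.65 ± 0.645 in wt (SD, n = 3, 4, 3 and 3), and the P195A/- libraries, from 2.89 to 4.09, lay above all others, as in 0.701% of all genes tested. Its log2 fold change was 1.12 in P195A/- against wt (SE 0.37, adjusted p = 0.291) and 0.87 in P195A/- against P195A/P195A (SE 0.34, adjusted p = 0.68). Snrpd3, a core protein shared with spliceosomal particles, averaged 38.6 CPM in P195A/+, 28.6 in P195A/P195A, 31.1 in P195A/- and 31.4 in wt (smallest adjusted p 0.58, over the 4 genotypes). Rnu7, the RNA of the particle and itself a gene of the syndrome in humans, was not among the 6 genes chosen. It was listed at 0 in every library. Whether the libraries could capture this RNA was not tested.

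Lsm11 also carried the most edited of the listed sites when all libraries were pooled, with 283 edited of 893 reads (31.7%). At this position, 45930598, 36.8, 40.5 and 34.2% of reads were edited in P195A/+, 34.2, 30.2, 41.4 and 35.9% in P195A/P195A, 13.3, 35.5 and 20.4% in P195A/-, and 27.8, 19.7 and 29.0% in wt. All 3 P195A/+ and all 4 P195A/P195A libraries lay above all 3 wt libraries, and the P195A/- libraries spanned the range of wt and reached that of P195A/P195A. Such a gap above wt was found at 8.32% of tested sites in P195A/+ and at 5.55% in P195A/P195A. Depth was 45 to 87 reads, which gives a library a 95% Wilson interval such as 6.26 to 26.2% for the lowest value and 31.6 to 51.9% for the highest.

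Pooled over libraries the level was 37.3% in P195A/+, 35.9% in P195A/P195A, 24.2% in P195A/- and 25.5% in wt. The mean difference between libraries was 11.7 percentage points for P195A/+ minus wt and 9.94 for P195A/P195A minus wt. The exact two-sided permutation p was 0.1 and 0.0571, each the smallest that such group sizes allow. The difference was -2.43 points for P195A/- minus wt (exact permutation p = 0.9) and -12.4 for P195A/- minus P195A/P195A (exact permutation p = 0.171). In edgeR's quasi-likelihood test on edited and unedited reads, the log2 odds ratio was 0.80 (SE 0.41, adjusted p = 0.828) in P195A/+ against wt and 0.70 (SE 0.39, adjusted p = 0.673) in P195A/P195A against wt. It was -0.14 (SE 0.47, adjusted p = 1) in P195A/- against wt and -0.83 (SE 0.42, adjusted p = 0.687) in P195A/- against P195A/P195A. The median over all tested sites was 0.21, 0.16, 0.07 and -0.09 in these comparisons. The site did not pass in any of them. Leaving out P195A/- replicate 1 gave 0.20 in P195A/- against wt and -0.50 in P195A/- against P195A/P195A, and leaving out P195A/- replicate 2 gave -0.72 and -1.41.

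**Figure D3:**
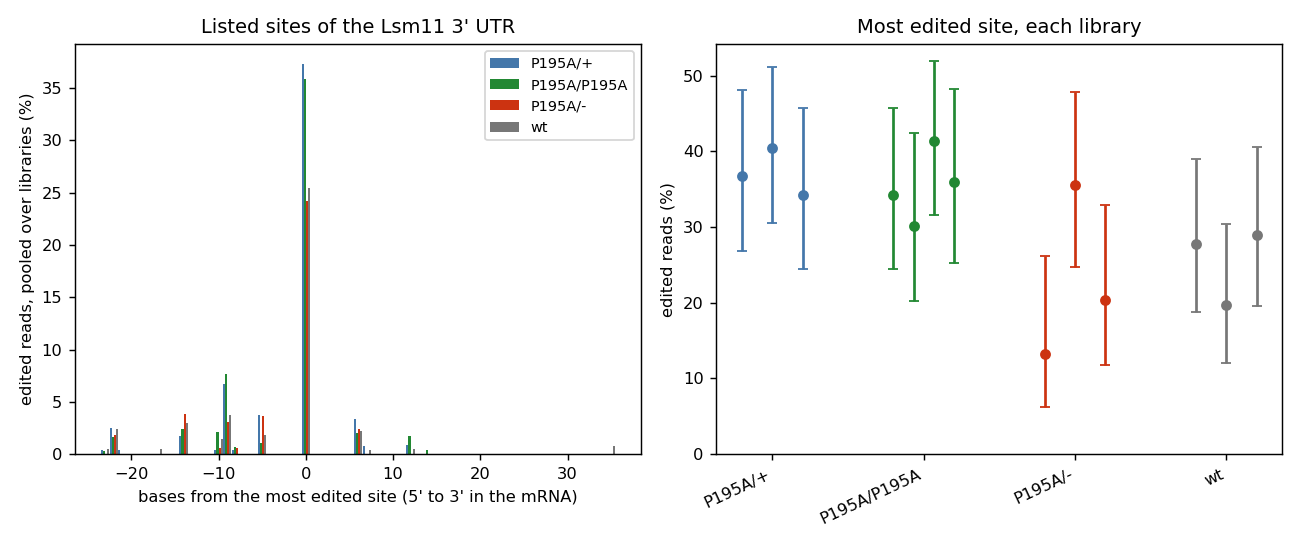
Edited reads in percent at the listed sites of the Lsm11 3′ UTR. Left, pooled over the libraries of each genotype, against distance in bases from the most edited site (x axis). Right, the most edited site in each library with 95% Wilson intervals, where P195A/+ (34.2 to 40.5%) and P195A/P195A (30.2 to 41.4%) lie above wt (19.7 to 29.0%).

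The other 14 Lsm11 sites were edited far less. The next highest, at position 45930607, held 51 edited of 899 reads (5.67%). Its pooled level was 6.72% in P195A/+, 7.69% in P195A/P195A, 3.05% in P195A/- and 3.79% in wt, with a smallest adjusted p of 0.704 by edgeR. Of the 15 sites, 7 reached a pooled level of 1% and the other 8 held 1 to 8 edited reads. Of these sites, 6, 8, 7 and 8 entered edgeR's test in P195A/+ against wt, P195A/P195A against wt, P195A/- against wt and P195A/- against P195A/P195A, and none passed, where 0.0143%, 0.208%, 0% and 0.0846% of all sites did. At an unadjusted p under 0.05 there were 0, 0, 0 and 1, the most edited site, where 6.06%, 7.99%, 4.01% and 7.25% of all sites were. Sites this close share reads. Of 15 Lsm11 sites, 8 were followed and 5 preceded by another A. Of the 12 Rnaseh2a 3′ UTR sites, 7 were followed by G and 5 preceded by T. ADAR enzymes are known to favour a G after the edited base and to avoid one before it.

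Editing of Rnaseh2a, the catalytic subunit of RNase H2, was too shallow to compare. Its sites held 3 to 24 reads in a library, so none of its sites met the minimum of 10 reads in each library. Position 84957505 held 21 edited of 105 reads over all libraries (20.0%). The pooled level was 29.3% in P195A/+ (95% Wilson interval 17.6 to 44.5%), 16.0% in P195A/P195A (6.4 to 34.7%), 20.0% in P195A/- (7.05 to 45.2%) and 8.33% in wt (2.32 to 25.8%). All 3 edited reads of P195A/- came from replicate 3, and both of wt from replicate 1. The intervals overlap and cover counting error only.

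Rnaseh2a, the RNase H2 subunit with the active site, had its highest mean in P195A/-. It had 9.88, 8.46 and 14.8 CPM in P195A/+, 8.68, 7.37, 9.04 and 12.8 in P195A/P195A, 13.8, 12.4 and 19.3 in P195A/-, and 8.99, 9.73 and 14.4 in wt. Replicate 3 of P195A/- was the highest library and also the one with the most mitochondrial transcripts, and P195A/- overlapped each of the other genotypes. The male was the highest animal in P195A/+, P195A/- and wt, but not in P195A/P195A, where the male (replicate 2) was the lowest. Of the annotated exon length of Rnaseh2a, 9.66% lies in exons of Gm49661 on the same strand. Reads of that stretch can be assigned to either gene. Another 5.04% lies opposite exons of Prdx2 on the other strand.

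The log2 fold change of Rnaseh2a was 0.68 in P195A/- against P195A/P195A (SE 0.24, adjusted p = 0.649) and 0.45 in P195A/- against wt (SE 0.26, adjusted p = 0.557). Without P195A/- replicate 3 the first of these was 0.47 and the second 0.25. In females only, the first was 0.37 and the second 0.48. Without P195A/P195A replicates 2 and 3 the first was 0.50. In P195A/+ against wt it was 0.00 (SE 0.26), and in P195A/P195A against wt -0.22 (SE 0.24), which was 0.03 without wt replicate 3.

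Rnaseh2b, a non-catalytic subunit that anchors the enzyme at replication factories, had 4.7, 4.84 and 5.37 CPM in P195A/+, 4.13, 8.61, 5.11 and 3.54 in P195A/P195A, 3.61, 3.91 and 4.44 in P195A/-, and 4.04, 9.2 and 8.22 in wt. Of 3 wt libraries, 2 lay above every P195A/+ and P195A/- library, and wt replicate 1 lay below all of P195A/+ and between the P195A/- libraries. The log2 fold change was -0.84 in P195A/- against wt (SE 0.33, adjusted p = 0.361, unadjusted p under 0.05). It was -0.53 in P195A/+ against wt (SE 0.32, adjusted p = 0.999), -0.43 in P195A/P195A against wt (SE 0.30, adjusted p = 0.846) and -0.41 in P195A/- against P195A/P195A (SE 0.31, adjusted p = 0.901). Leaving out wt replicate 1 gave -1.13 in P195A/- against wt and -0.81 in P195A/+ against wt, and leaving out wt replicate 2 gave -0.62 and -0.30. In P195A/P195A against wt the value was -0.74 without P195A/P195A replicate 2 and -0.20 without wt replicate 2. The value in P195A/- against P195A/P195A was -0.11 without P195A/P195A replicate 2 and 0.06 without both P195A/P195A replicates 2 and 3.

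Rnaseh2c, the smallest subunit, had 9.34, 7.59 and 7.08 CPM in P195A/+, 6.29, 7.22, 7.96 and 6.37 in P195A/P195A, 6.78, 11.8 and 7.22 in P195A/-, and 6.8, 9.36 and 10.1 in wt. All genotypes overlapped. Its log2 fold changes ran from -0.33 (P195A/P195A against wt, SE 0.21, adjusted p = 0.836) to 0.30 (P195A/- against P195A/P195A, SE 0.21, adjusted p = 0.888). Without P195A/- replicate 2, the highest library, the second of these was 0.01. About 24.8% of its annotated exon length lies opposite exons of Kat5 on the other strand, and the sources used here do not say whether the counting used strand.

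No correlation between the RNA levels of the subunits passed a test. Across the 13 libraries, Pearson's r of log2 CPM was -0.23 for Rnaseh2a with Rnaseh2b (Spearman's rho -0.19), 0.09 for Rnaseh2a with Rnaseh2c (rho 0.04) and 0.36 for Rnaseh2b with Rnaseh2c (rho 0.50), and no permutation p of the 15 pairs of the 6 genes was under 0.05 after adjustment (smallest 0.554 for r and 0.175 for rho). The highest in size was Samhd1 with Lsm11 (r = -0.54, permutation p = 0.0583; rho = -0.64, permutation p = 0.0214). Taken as deviations from the genotype means it was -0.62 (adjusted p = 0.358), and without the 2 libraries farthest in Samhd1 it was -0.67 (adjusted p = 0.19). Rnaseh2c with Samhd1 had r = -0.28 over all libraries and -0.81 (adjusted p = 0.0333) without P195A/- replicate 2 and wt replicate 3, a value that rests on leaving these out.

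Of 16 other genes of RNase H and ribonucleotide excision repair, all were tested and none passed by edgeR or DESeq2. Against wt, P195A/- brains had 8 of them higher and 8 lower, 2 with an unadjusted p under 0.05 (median log2 fold change 0.00), and in P195A/- against P195A/P195A 7 were higher and 9 lower (-0.03). Exo1, a DNA exonuclease, averaged 5.02 CPM in P195A/+, from 2.51 to 9.75, and 1.88 in wt (log2 fold change 1.43, SE 0.47, adjusted p = 0.999). Rfc4, a subunit of the clamp loader, averaged 1.64 CPM in P195A/- and 3.23 in wt (log2 fold change -0.98, SE 0.42, adjusted p = 0.419). Of the 12 proliferating cell markers, 11 were tested and none passed by edgeR or DESeq2, with 1, Top2a, at an unadjusted p under 0.05 in P195A/- against wt (log2 fold change 0.73, SE 0.34, adjusted p = 0.454). Ccna2, a cyclin, was at 0.29 (SE 0.33). The list summed to 30.6 to 38.3 CPM in P195A/+, 26.5 to 37.1 in P195A/P195A, 32.1 to 43.8 in P195A/- and 30.9 to 32.5 in wt.

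Samhd1, the deoxynucleotide hydrolase, had group means between 17.0 and 19.5 CPM. It had 15.7, 16.9 and 18.4 CPM in P195A/+, 22.8, 17.1, 15.4 and 18.8 in P195A/P195A, 18.0, 20.8 and 19.6 in P195A/-, and 20.4, 15.7 and 17.8 in wt. P195A/+ and P195A/- overlapped only between their nearest libraries, and all other pairs of genotypes overlapped broadly. Log2 fold changes were -0.08 (SE 0.16), 0.05 (SE 0.15) and 0.12 (SE 0.16) in P195A/+, P195A/P195A and P195A/- against wt, and 0.07 (SE 0.15) in P195A/- against P195A/P195A, with adjusted p of 0.82 or more. The approximate 95% intervals of the 4 comparisons lay between -0.38 and 0.42. Microglia, immune cells of the brain, had marker sums of 267 to 299 CPM in P195A/+, 218 to 373 in P195A/P195A, 266 to 293 in P195A/- and 280 to 291 in wt. One of the 12 microglia markers, Fcrls, a surface receptor, averaged 9.7 CPM in P195A/- and 19.2 in wt (log2 fold change -0.98, SE 0.23, adjusted p = 0.192), and the median of the list was -0.06. Fcrls passed with DESeq2 in P195A/- against P195A/P195A and over the 4 genotypes. C1qc, a complement protein of microglia, was at 0.39 in P195A/- against wt (SE 0.25, adjusted p = 0.599). Blood cell markers, of red and white cells, summed to 362 to 950 CPM in P195A/+, 240 to 550 in P195A/P195A, 257 to 917 in P195A/- and 310 to 1201 in wt, with Hbb-bs at -0.89 (SE 0.68) and Alas2 at -0.55 (SE 0.62) in P195A/- against wt. Endothelial and pericyte markers summed to 408 to 454 CPM in P195A/+, 357 to 448 in P195A/P195A, 420 to 438 in P195A/- and 368 to 416 in wt. Rgs5, a pericyte gene, was at 0.29 in P195A/- against wt (SE 0.11, adjusted p = 0.346) and Kdr, a receptor of endothelial cells, at 0.43 (SE 0.20, adjusted p = 0.446). The part of these cells in the Samhd1 level was not tested.

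The 17 genes of deoxynucleotide supply, the pathway on whose products SAMHD1 acts, were all tested and none passed by edgeR or DESeq2. Of these 17, 8 were higher and 9 lower in P195A/- against wt, 1 with an unadjusted p under 0.05, and the median was -0.01. Dck, the kinase that salvages deoxycytidine, averaged 37.2 ± 3.48 CPM in P195A/+, 36.1 ± 2.42 in P195A/P195A, 33.2 ± 0.87 in P195A/- and 40.2 ± 1.5 in wt (SD, n = 3, 4, 3 and 3). Its log2 fold change in P195A/- against wt was -0.28 (SE 0.10, adjusted p = 0.341). Dctd, the deaminase of deoxycytidylate, averaged 2.75 CPM in P195A/+, 4.46 in P195A/P195A, 4.47 in P195A/- and 3.57 in wt (smallest adjusted p 0.606, over the 4 genotypes).

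Trex1 is encoded entirely inside another gene's annotated exons. On chromosome 9 its 1147 exon bases all lie in exons of Atrip, a DNA damage signalling partner gene, on the same strand, so reads of Trex1 can be assigned to either gene. It had 1.86, 0.967 and 1.43 CPM in P195A/+, 1.44, 2.12, 3.04 and 0 in P195A/P195A, 2.37, 1.28 and 3.05 in P195A/-, and 0.843, 2.0 and 0 in wt. P195A/P195A replicate 4 and wt replicate 3 were listed at 0, with 517 or more estimated counts of Atrip in the same libraries, and all genotypes overlapped.

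The log2 fold change of Trex1 was 0.60, 0.82 and 1.26 in P195A/+, P195A/P195A and P195A/- against wt (SE 1.09, 1.03 and 1.08), and 0.43 in P195A/- against P195A/P195A (SE 0.97). Without wt replicate 3 the values against wt were -0.01, 0.23 and 0.64, and without wt replicate 2 they were 1.81, 2.05 and 2.47. The value in P195A/- against P195A/P195A was 0.02 without P195A/P195A replicate 4 and 0.94 without P195A/P195A replicate 3. Atrip averaged 30.4 ± 0.142 CPM in P195A/+, 30.3 ± 1.98 in P195A/P195A, 28.7 ± 3.45 in P195A/- and 26.7 ± 2.09 in wt (SD, n = 3, 4, 3 and 3). With the counts of both genes summed, an alternative chosen after seeing the data, the log2 fold change in P195A/- against wt was 0.16.

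**Figure D4:**
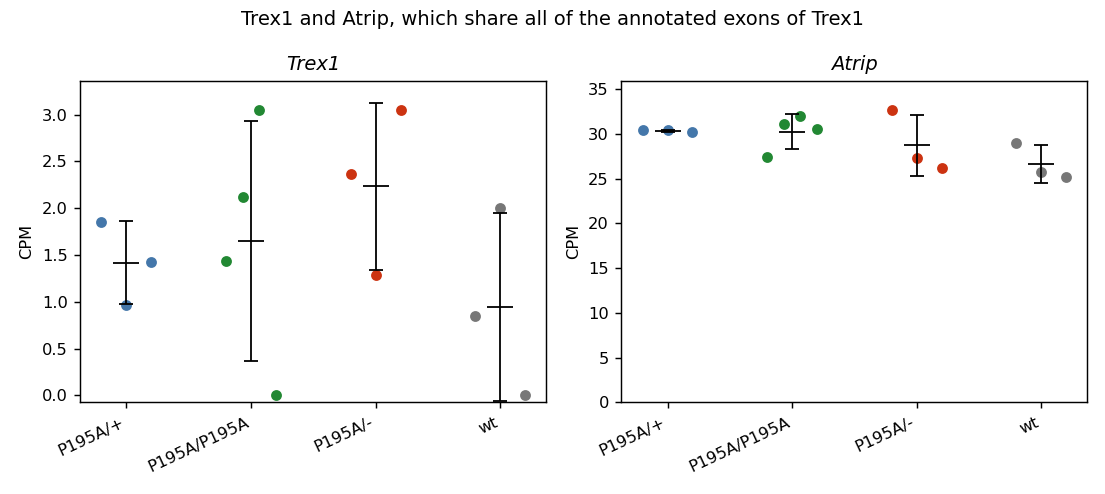
Level in CPM (y axis, on different scales) of Trex1 and of Atrip in the 13 libraries, by Adar genotype. Points are libraries and bars the mean ± SD. Trex1 is at 0 in 1 P195A/P195A and 1 wt library, where Atrip has 30.6 and 25.2 CPM.

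Of 23 other DNA and RNA nucleases, 20 were tested and none passed by edgeR or DESeq2. Of these 20, 10 were higher and 10 lower in P195A/- against wt, 0 with an unadjusted p under 0.05 (median 0.01). Pld4, an exonuclease of endolysosomes, averaged 2.53 CPM in P195A/+, 5.0 in P195A/P195A, 3.47 in P195A/- and 3.08 in wt, and its log2 fold change in P195A/P195A against wt was 0.69 (SE 0.24, adjusted p = 0.83). Rnaset2a, a lysosomal ribonuclease, averaged 0.858 CPM in P195A/+ and 1.75 in wt (log2 fold change -1.03, SE 0.45, adjusted p = 0.999).

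TREX1 and RNase H2 limit the DNA that cGAS and STING sense. Of 13 genes of that pathway in the table, 12 were tested and none passed by edgeR or DESeq2, with 8 higher and 4 lower in P195A/- against wt, 1 at an unadjusted p under 0.05 (median 0.08). Irf7, a transcription factor of the interferon response, averaged 0.847 CPM in P195A/+, 1.17 in P195A/P195A, 2.64 in P195A/- and 1.16 in wt. Its log2 fold change was 1.18 in P195A/- against wt (SE 0.41, adjusted p = 0.314) and 1.16 in P195A/- against P195A/P195A (SE 0.38, adjusted p = 0.57). Ikbke, a kinase that activates interferon regulatory factors, averaged 0.941 CPM in P195A/+, 1.72 in P195A/P195A, 1.72 in P195A/- and 0.982 in wt (adjusted p = 0.645 over the 4 genotypes). Ifnb1, interferon beta, was listed at 0 in every library.

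The interferon signature used in blood of patients with the syndrome has 6 genes, of which 4 were tested, and none passed edgeR's test in any comparison. All 4 were lower in P195A/+ and in P195A/P195A than in wt (median log2 fold change -0.25 and -0.38), and all 4 were higher in P195A/- than in wt (0.29) and than in P195A/P195A (0.93). The numbers with an unadjusted p under 0.05 were 1, 2, 1 and 4, where 4.48%, 5.89%, 10.6% and 6.82% of all genes were. The comparisons share libraries, so these counts are not independent. Ifit1, an interferon-induced RNA-binding protein, averaged 2.07 ± 0.365 CPM in P195A/+, 2.09 ± 0.534 in P195A/P195A, 5.61 ± 1.06 in P195A/- and 2.54 ± 0.818 in wt (SD, n = 3, 4, 3 and 3). Its log2 fold change was 1.14 in P195A/- against wt (SE 0.29, adjusted p = 0.221) and 1.42 in P195A/- against P195A/P195A (SE 0.28, adjusted p = 0.106), both by edgeR. The second passed with DESeq2, as did its DESeq2 test over the 4 genotypes. DESeq2 gave Ifit1 no adjusted p in P195A/- against wt. Rsad2, an antiviral enzyme, was at 0.29 in P195A/- against wt (SE 0.40, adjusted p = 0.823) and at 1.15 in P195A/- against P195A/P195A (SE 0.38, adjusted p = 0.577). Ifih1, which shares the syndrome with these genes, averaged 5.12 CPM in P195A/+, 5.91 in P195A/P195A, 8.27 in P195A/- and 5.19 in wt (log2 fold change in P195A/- against wt 0.67, SE 0.26, adjusted p = 0.364).

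Promoters of the 6 genes were searched for the core of the interferon-stimulated response element, the sequence that interferon-activated factors bind. The motif, searched as GAAA followed after any 2 bases by GAAA and as TTTC followed likewise by TTTC for the other strand, was in 0 of the 6 RefSeq promoter windows (GRCm38.p6, 300 bases round the start) that matched 5 of the 6 genes by symbol. It was in 3.44% of all 32851 windows. Rnaseh2b had no window in that table. No match says only that these letters are not in the window.

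The genes whose log2 CPM followed each of the 6 most closely over the 13 libraries were ranked among those of at least 5 CPM. Lsm11 was nearest to Gnai1 (Pearson's r 0.94), a G protein subunit, Tmx1 (0.93) and Matr3 (0.92), a nuclear matrix protein. Samhd1 was nearest to the sodium channel gene Scn8a (0.91), Eef2k (0.89) and Kat8 (0.88). Rnaseh2b was nearest to Agtrap (0.92), Klhl42 (0.85) and Pon2 (0.83), and Rnaseh2c to Zcchc9 (0.87), Hhatl (0.86) and Mcm6 (0.85). Rnaseh2a was nearest to Kcnh2 (0.87), Lpin1 (0.87) and Maml1 (0.84), and Trex1 to Wdsub1 (0.79), Ints6 (0.79) and Gpr165 (0.76). These are the highest of 12872 or 12873 values each, over libraries that share genotype and depth, and are given as a description.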

How the data were processed

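The authors deposited estimated counts per gene. Per the submitters' processing notes they used fastp 0.19.5, Salmon and edgeR; index and annotation are not stated. Of the nonzero values 99.5% are not whole, and all were rounded. IDs of 51482 of 54307 entries matched GENCODE M21 (GRCm38); the rest held 0.678% of counts. The authors also deposited, per the file headers, JACUSA2 2.0.0-RC5 output on known editing sites: read counts of each base and a score per site, the caller's test statistic, which was not used here. Reads were strand-specific, duplicates were left out, and coverage was at least 3 and capped at 3000. The labels name mm10, and no aligner is stated.

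The members and gene lists were chosen with earlier results of these data known. Genes were tested in edgeR 4.0.16 (R 4.3.3; filterByExpr, TMM, robust quasi-likelihood) with 1 coefficient for each genotype and all 13 libraries together; the biological coefficient of variation was 19.1%. Standard errors were derived from the test's F statistic. Editing was tested in edgeR on edited and unedited reads, within each deposited comparison, at sites with at least 10 reads in each library and a pooled level of 1 to 99%. The site with the most edited reads was singled out in each gene. Correlations used 100000 permutations, and the inverted copy was found with BLAST 2.17.0. Wilson intervals cover counting error only, and the sources used name no molecular identifiers of reads. Intervals of fold changes are 1.96 standard errors of the edgeR fit, which takes in the spread between animals. They are approximate and can be narrower than the test allows. For Adar in P195A/- against wt the interval was 0.000713 to 0.32, with an unadjusted p of 0.0666 by edgeR. Animals of each group differ in sex, and those of P195A/P195A and of wt also differ in age. Beside the 6 members, the text names Adar, Ifih1 and the 2 genes of each list with the smallest p over the 4 genotypes. It also names the 3 genes nearest each member. Atrip, Rnu7, Ifnb1, Kat5, Gm49661 and Prdx2 were added after values were seen. The scripts were tested on simulated data. Alternatives used DESeq2 1.42.0 and limma 3.58.1 (voom).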

Additional observations from a re-analysis of the deposited data

How the results depend on the processing

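None of the 6 genes passed in the 4 comparisons under any of 370 refits (5 of these, all in P195A/- against wt, had no adjusted p from DESeq2), and no editing site of theirs did; 24 refits changed a sign. Lsm11 kept its direction in P195A/- in all 14 refits against wt and all 16 against P195A/P195A (-0.23 to -0.17 and -0.28 to -0.22 leaving out 1 library). Over the 4 genotypes Lsm11 passed with DESeq2 (adjusted p = 0.0376); leaving out 1 library, edgeR gave 0.145 to 0.616. Trex1 rests on 0 to 62 counts a library, and the cause of the changes below was not tested.

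Genes called in P195A/+ against wt were 7 with no low-count filter, 19 with DESeq2, 11 with only those genotypes fitted, 0 in females and 1 to 2 leaving out 1 library. In P195A/P195A against wt they were 19 with DESeq2, 5 with only those genotypes, 5 in animals of 48 days and 5 to 13 leaving out 1 library. In P195A/- against wt they were 16, 200 and 16 (no filter, DESeq2, only those genotypes) and 2 to 6. In P195A/- against P195A/P195A they were 29, 52 and 5, and 5 to 15. Over the 4 genotypes they were 54 with no filter, 234 with DESeq2 and 11 to 47 leaving out 1 library. Between animals of the same replicate number, correlations of deviations were -0.0744 to 0.124. No reference value was worked out, so they cannot decide whether replicate numbers pair the animals. With the replicate number as a block the count over the 4 genotypes was 13, the other counts stayed within 1.5 times, and no member passed. Without the 2 libraries farthest from the first gene's median, 1 pair of members passed.

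In P195A/+ against wt, females gave Trex1 -0.022 and Rnaseh2c 0.0639, no filter gave Rnaseh2a 0.00281, and leaving out 1 library gave -0.0105 to 1.81 for Trex1, -0.27 to 0.24 for Rnaseh2a and -0.16 to 0.023 for Samhd1. In P195A/P195A against wt, Trex1 was -0.39 without replicates 2 and 3, Rnaseh2a 0.11 in females and 0.22 at 48 days, and Samhd1 -0.0815 at 48 days; leaving out 1 library gave -0.40 to 0.0262 for Rnaseh2a and -0.0624 to 0.14 for Samhd1. In P195A/- against wt, Rnaseh2c was 0.20 in females and -0.33 to 0.11 leaving out 1 library, and the main Lsm11 editing site -0.72 to 0.20. In P195A/- against P195A/P195A, Trex1 was -0.0592 with Atrip counts added, and without P195A/P195A replicates 2 and 3 Rnaseh2b was 0.0598 and Samhd1 -0.0916; leaving out 1 library gave Samhd1 -0.00905 to 0.18.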
